A study of Mus musculus with 2 samples.

Results

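MicroRNAs (miRNAs) that are tied to nuclear factor-κB (NF-κB) signalling were examined in exosomes of LLC cells, a mouse Lewis lung carcinoma cell line. The set comprised 7 of the 1881 mouse miRNAs on the array, namely mmu-miR-21a-5p, mmu-miR-146a-5p, mmu-miR-146b-5p, mmu-miR-155-5p, mmu-miR-132-3p, mmu-miR-147-3p and mmu-miR-9-5p, written without the species prefix from here on. They were chosen by name, as miRNAs known to be induced by NF-κB or to restrain it, and every one of them had probes on the array. Exosomes, which are small vesicles released by cells, were isolated by ultracentrifugation from the supernatant of LLC cells cultured in exosome-free serum, with no further treatment given in the labels. Their RNA was hybridized to 2 single-colour Agilent mouse miRNA microarrays, 1 for each of 2 independent experiments. Thus there was 1 group of 2 replicates, with neither a control group nor an array of the cells themselves, and no difference between groups was tested. The study asked how tumour exosomes activate NF-κB in lung fibroblasts, and the arrays show which miRNAs were detected in the exosome RNA.

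NF-κB is a family of transcription factors held inactive in the cytoplasm by inhibitor proteins until receptors for microbial products or cytokines trigger a kinase cascade that frees them. Several miRNAs belong to this circuit. Some are transcribed when NF-κB is active and repress the messenger RNAs of its upstream adaptors, whereas others repress brakes of inflammation. A miRNA finds its targets mainly through its seed, bases 2 to 8 from the 5′ end.

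The mature sequences are shown because the seed groups the miRNAs into target families. Their base composition is set beside that of the detected miRNAs further on. They were taken from RefSeq for the build GRCm38.p6, which held 6 of the 7 names, with the seed in capitals and the rest in lower case.
miR-21a-5p: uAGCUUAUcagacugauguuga
miR-146a-5p: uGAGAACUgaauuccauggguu
miR-146b-5p: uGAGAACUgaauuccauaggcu
miR-155-5p: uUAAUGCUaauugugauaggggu
miR-132-3p: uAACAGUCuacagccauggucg
miR-9-5p: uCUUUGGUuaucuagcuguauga
The name without a sequence here is miR-147-3p. Both miR-146 members had the same seed, and they differed at 2 of 22 positions counted from the 5′ end, G18A and U21C, with the base of miR-146a-5p given first. The other 4 seeds each occurred in 1 member. Among the other miRNAs of the array with a RefSeq sequence, miR-21c had the seed of miR-21a-5p and miR-212-3p that of miR-132-3p.
miR-21c: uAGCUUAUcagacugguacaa
miR-212-3p: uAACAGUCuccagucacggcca

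In GRCm38.p6, miR-21a-5p lay at chr11:86584120-86584141 on the minus strand, within the bounds of the protein-coding gene Vmp1. miR-155-5p lay at chr16:84714143-84714165 on the plus strand, within the lncRNA gene Mir155hg. miR-146a-5p lay at chr11:43374435-43374456 on the minus strand, and no other listed gene spanned it. miR-146b-5p lay at chr19:46342790-46342811 on the plus strand, within the lncRNA gene Gm36493. miR-132-3p lay at chr11:75173723-75173744 on the plus strand, and its hairpin was separated from that of miR-212 by 203 bases. miR-9-5p had 3 gene copies, Mir9-1 on chromosome 3, Mir9-2 on chromosome 13 and Mir9-3 on chromosome 7, which give the same mature sequence and cannot be told apart on the array. The reference table gave gene bounds alone, so exon or intron was not assigned.

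Each miRNA was read by 2 or 4 probes and, before outlier spots were left out, by 30 spots. The authors deposited a background-subtracted fluorescence intensity for each spot, in arbitrary units, and a value at or below 0 is a spot no brighter than its background. A probe was called detected when its total signal was over 3 times the error of that total, and a miRNA when at least 1 of its probes was. Feature Extraction, the scanner software, called 253 miRNAs detected in replicate 1 and 223 in replicate 2. Negative control spots, which pair with no mouse miRNA, had a mean intensity of 0.570 ± 2.48 (SD over 986 spots) in replicate 1 and 0.760 ± 2.72 (SD over 995 spots) in replicate 2, and the brightest of them reached 9.45 and 9.35. The number of arrays limits the precision of every value, and because each probe has its own affinity, an order of signal is not an order of amount.

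Of the 7 NF-κB-linked miRNAs, only miR-21a-5p was detected, and it was detected in both replicates. The other 6 were detected in neither. Over the whole array, 216 of 1881 miRNAs, 11.5%, were detected on both arrays, so 1 of 7 is close to the background share. miR-21a-5p was also the only member with a probe well above background in at least 50% of its spots on both arrays, a call that 7.07% of all miRNAs met. It was again the only member when such spots had merely to be positive and significant against background, which 25.4% of all miRNAs met. miR-155-5p met this last call in replicate 1, with 10 of 15 spots of a probe, and narrowly missed it in replicate 2, with 7 of 15. Every probe lay above the brightest negative control spot on both arrays for miR-21a-5p alone among the members, and for 7.71% of all miRNAs. When outlier spots were kept, the brightest negative control spot was 46.4 and 36.9, and 0 members had every probe above it. The median of the members' mean intensities was 0.626 in replicate 1 and 0.266 in replicate 2, against 0.462 and 0.225 for all 1881 miRNAs.

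**Figure D1:**
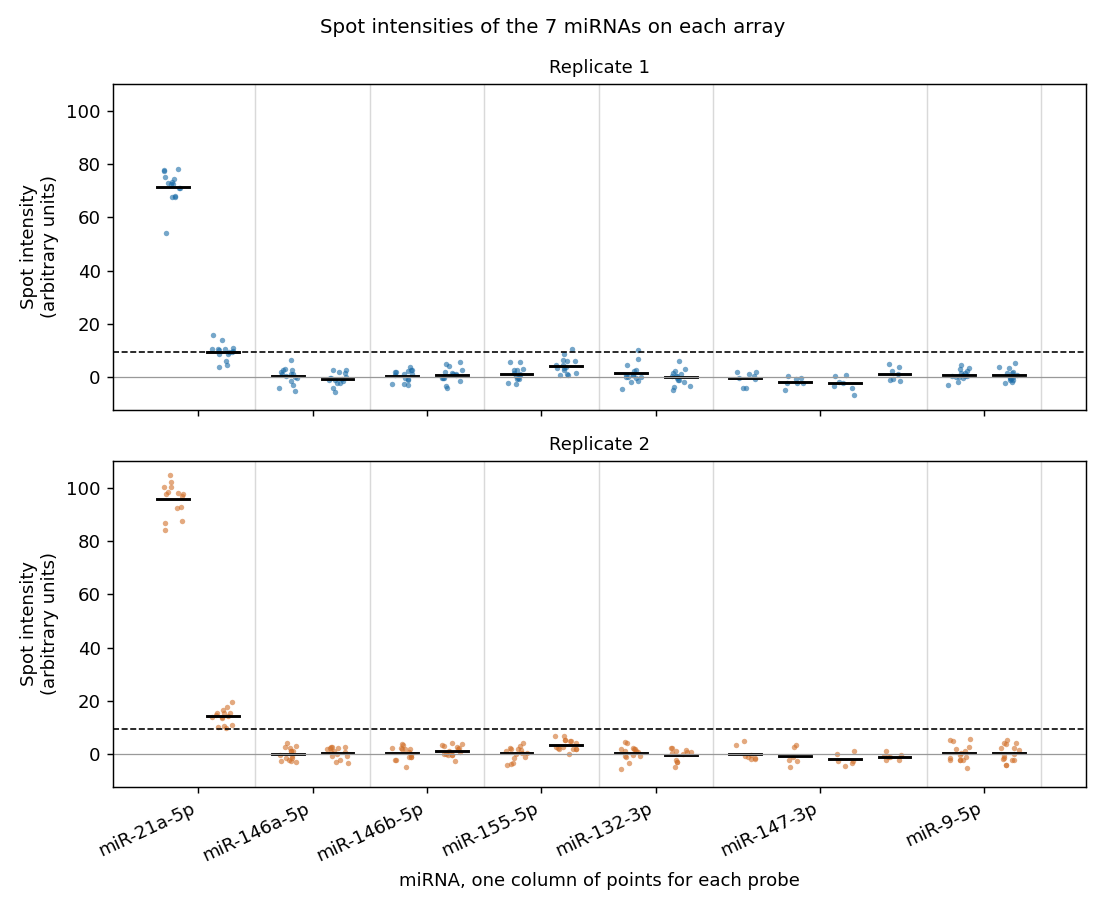
Intensity of each spot (arbitrary units, linear axis) for each probe of the 7 miRNAs in replicate 1 (upper panel) and replicate 2 (lower panel), with outlier spots left out. Black bars are probe means and the dashed line is the brightest negative control spot, 9.45 and 9.35. The spots of the brighter miR-21a-5p probe lie between 54.0 and 104.8, and those of its other probe straddle or exceed the dashed line. The spots of the other 6 miRNAs scatter around 0 apart from the brighter miR-155-5p probe, whose means are 4.19 and 3.43. In replicate 1, single spots of miR-155-5p (10.5) and miR-132-3p (9.95) lie above the dashed line.

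miR-21a-5p is a widely expressed miRNA that is raised in many tumours. Its brighter probe had a mean intensity of 71.6 ± 5.97 (SD over 15 spots) in replicate 1, with spots from 54.0 through a median of 72.6 to 78.1. In replicate 2 the mean was 95.9 ± 6.10 (SD over 14 spots), with spots from 84.4 through a median of 97.8 to 104.8. The spots of this probe did not overlap between the arrays, and all of them were well above background. Its total signal was 9.20 times its error in replicate 1 and 9.51 times in replicate 2.

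The dimmer probe of miR-21a-5p had a mean of 9.47 ± 3.13 (SD over 15 spots) in replicate 1, with spots from 3.72 through 9.86 to 15.8. In replicate 2 the mean was 14.0 ± 2.87 (SD over 15 spots), with spots from 9.51 through 14.1 to 19.4. Here the spots of the arrays overlapped. All 15 spots were positive and significant on each array, whereas 1 spot in replicate 1 and 6 spots in replicate 2 were well above background. In replicate 1 this probe was detected by a narrow margin, with a total signal of 2.009 against a limit of 2.006, and its mean exceeded the brightest negative control spot by 0.0291. Its signal was 4.16 times its error in replicate 2. The brighter probe was 7.55 times as bright as the dimmer one in replicate 1 and 6.84 times in replicate 2. The call of miR-21a-5p did not rest on the dimmer probe, since 1 detected probe suffices.

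Both miR-21a-5p probes were brighter in replicate 2, by a ratio of 1.34 for the brighter and 1.48 for the dimmer probe. In contrast, the median ratio over the 393 probes detected on both arrays was 0.953. To put the arrays on 1 scale, each intensity was divided by the 75th percentile of the means of these 393 probes, 50.2 in replicate 1 and 40.0 in replicate 2, and the log2 was averaged over spots and then over probes. A level of 0 on this scale is thus a signal at that percentile. The level of miR-21a-5p was -0.99 in replicate 1 and -0.14 in replicate 2, with a mean of -0.57 ± 0.60 (SD, n = 2 arrays). Its level difference of 0.85 between the arrays (replicate 2 minus replicate 1) compares with a median of 0.21 over the 216 detected miRNAs, of which 12 had a larger difference in that direction. With 2 arrays this difference was not tested.

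By level, miR-21a-5p stood at rank 58 of the 216 detected miRNAs. Its neighbours were miR-721 at rank 57, whose level was -0.51 ± 0.31, and miR-6918-5p at rank 59, whose level was -0.60 ± 0.76 (SD, n = 2 arrays). These levels differed by less than the spread between the arrays. The rank was 35 when each miRNA was represented by its brightest probe. The 2 detected miRNAs nearest to miR-21a-5p in the pair of levels over both arrays were miR-6969-5p, at a distance of 0.18 on the log2 scale, and miR-8102, at 0.28. The summed total signal of its probes, 17.2 in replicate 1 and 23.3 in replicate 2, was 0.148% and 0.225% of the total over all detected probes of the array.

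**Figure D2:**
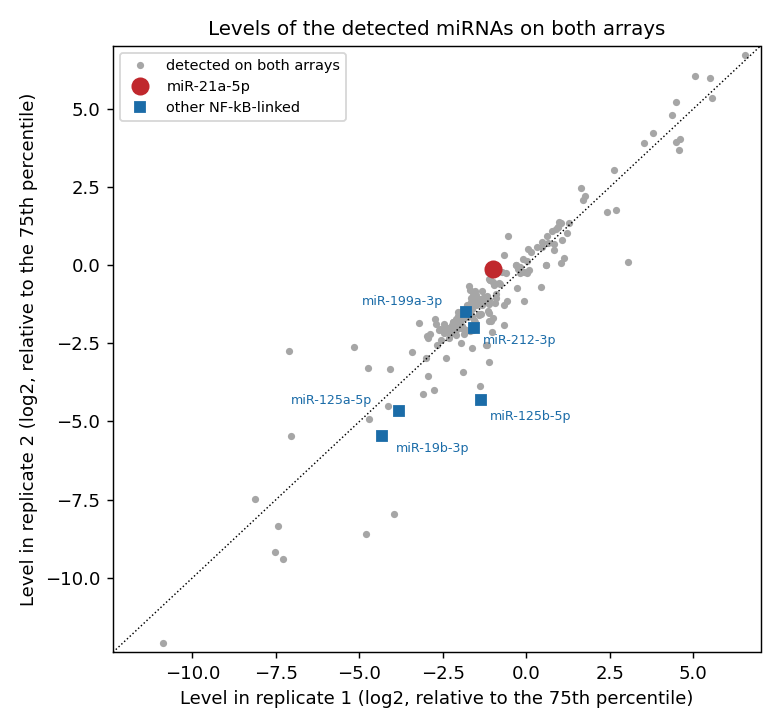
Level of each of the 216 miRNAs detected on both arrays in replicate 1 (horizontal axis) and replicate 2 (vertical axis), in log2 relative to the 75th percentile of the array. The red point is miR-21a-5p at -0.99 and -0.14, above the dotted line of equal levels, and blue squares are the other NF-κB-linked miRNAs that were detected, which include miR-125b-5p below that line, where its undetected probe lowers the level in replicate 2.

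Among the 6 undetected members, miR-155-5p had the highest signal. It is made from the Mir155hg transcript, is induced by Toll-like receptor signals and represses SOCS1, a brake of cytokine signalling. Its brighter probe had a mean intensity of 4.19 ± 2.85 in replicate 1 and 3.43 ± 2.01 in replicate 2 (SD over 15 spots each). In replicate 1 its spots ran from 0.679 through 3.76 to 10.5, and in replicate 2 they ran from -0.148 through 2.60 to 6.64. Of the 15 spots, 10 were positive and significant in replicate 1 and 7 in replicate 2, and 0 were well above background on either array. The mean of this probe was met or exceeded by 6.90% of the negative control spots in replicate 1 and by 16.4% in replicate 2. These shares set a mean over 15 spots against single control spots, which vary more than such a mean. Whether this probe differed from the controls was not tested. Its signal was 1.38 times its error in replicate 1 and 1.11 times in replicate 2, where 3 times were needed. Its other probe had a mean of 1.08 ± 2.57 (SD over 14 spots) in replicate 1 and 0.0967 ± 2.46 (SD over 15 spots) in replicate 2. Among the members, the signal of miR-155-5p was therefore carried by 1 of its 2 probes and lay below the detection limit on both arrays.

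miR-146a-5p is transcribed under NF-κB. It represses IRAK1, a kinase, and TRAF6, an adaptor, both of Toll-like receptor signalling, and miR-146b-5p has the same seed. Over its probes, miR-146a-5p had a mean intensity of -0.313 ± 2.67 in replicate 1 and 0.113 ± 2.18 in replicate 2 (SD over 30 spots each). For miR-146b-5p the means were 0.626 ± 2.41 and 0.703 ± 2.21 (SD over 30 spots each). The signal of their 4 probes reached at most 0.390 times its error, in replicate 2 for a miR-146b-5p probe. Both miR-146 miRNAs thus lay within the range of the negative controls on each array.

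miR-132-3p is made with miR-212 and is known in neurons and in the early response of immune cells. Its mean intensity was 0.521 ± 3.23 (SD over 30 spots) in replicate 1 and 0.0126 ± 2.54 (SD over 27 spots) in replicate 2. miR-9-5p, a miRNA of the nervous system that also represses NFKB1, had means of 0.688 ± 2.02 and 0.266 ± 3.15 (SD over 30 spots each). miR-147-3p, which macrophages induce on Toll-like receptor stimulation, was the lowest, with -0.956 ± 2.64 (SD over 29 spots) in replicate 1 and -0.972 ± 2.33 (SD over 27 spots) in replicate 2. Its spots were at or below 0 in 62.1% and 77.8% of cases. All of these means lay within the range of the negative control spots, and the order of these miRNAs was not tested.

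Taken as a set, the 6 undetected members had 14 probes, whose means in replicate 1 lay between -2.55 and 4.19, and those in replicate 2 between -2.09 and 3.43. Of their spots, 42.7% in replicate 1 and 46.0% in replicate 2 were at or below 0, against 41.8% and 38.4% of the negative control spots. These pooled shares mix unlike members, from 17.2% and 20.0% for miR-155-5p to 62.1% and 77.8% for miR-147-3p. Positive and significant spots made up 16.3% and 14.9% of the spots of the 6 members, against 17.5% and 20.8% of the negative controls. Above the brightest negative control spot lay 2 of 178 spots in replicate 1 and 0 of 174 in replicate 2. At this signal over background these miRNAs were not detectable, which does not show that they were absent from the exosomes.

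A hairpin gives a mature miRNA from each arm, and usually 1 of them is kept. The opposite arms of the members were miR-21a-3p, miR-146a-3p, miR-146b-3p, miR-155-3p, miR-132-5p, miR-147-5p and miR-9-3p. Of these 7, 0 were detected on either array, and no probe reached more than 0.399 times its error. Over the whole array 11.5% of miRNAs were detected on both arrays, so 0 of 7 is close to the background share. miR-21a-3p, the partner of the detected arm, was read by 4 probes, whose means lay between -0.485 and 0.221 in replicate 1 and between -2.58 and 0.30 in replicate 2. Thus the Mir21a hairpin was seen through its 5p arm alone.

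The miRNAs that share a seed with a member diverged from it. miR-21c, which has the seed of the detected miR-21a-5p, was detected on neither array, with a mean intensity of -1.07 ± 2.50 (SD over 29 spots) in replicate 1 and -1.42 ± 3.55 (SD over 30 spots) in replicate 2. In contrast, miR-212-3p, which has the seed of the undetected miR-132-3p and lies beside it in the genome, was detected on both arrays. Its brighter probe had a mean of 29.3 ± 7.71 in replicate 1 and 20.6 ± 6.06 in replicate 2 (SD over 15 spots each), which was 6.88 and 5.53 times its error. Its other probe was detected in replicate 1, with 10.6 ± 3.48 (SD over 15 spots), and not in replicate 2, with 5.52 ± 2.26 (SD over 13 spots). Aligned from the 5′ end, miR-132-3p and miR-212-3p agreed at 17 of 22 positions, and the probe sequences were not used here, so pairing of a probe with the other miRNA was not tested.

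**Figure D3:**
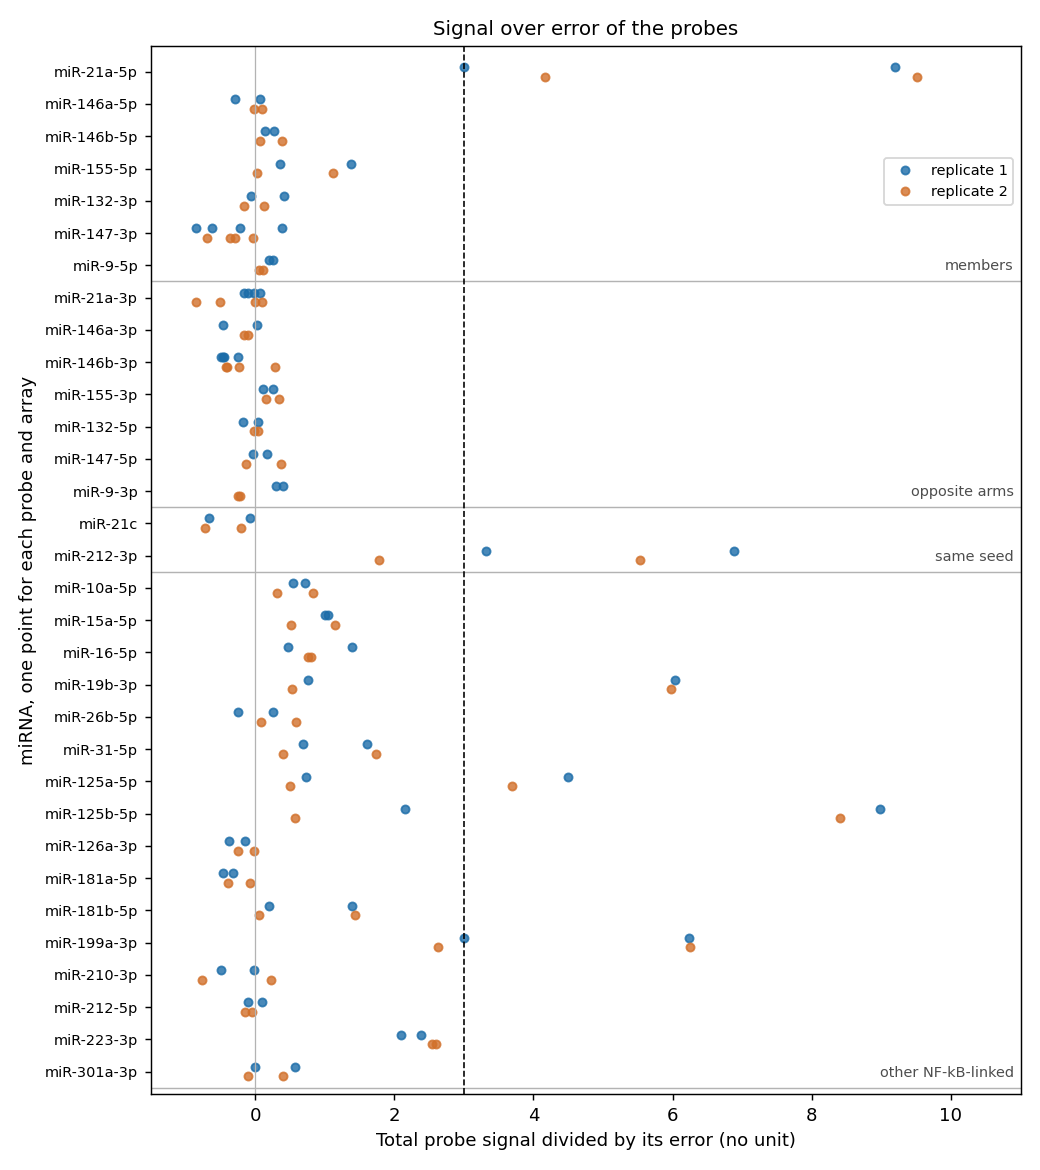
Total signal of each probe divided by its error (no unit) for the members, their opposite arms, the miRNAs with a member's seed and the other NF-κB-linked miRNAs, in replicate 1 (blue) and replicate 2 (orange). The dashed line at 3 is the detection limit. Among the members, both probes of miR-21a-5p lie at or beyond it, and the next is a miR-155-5p probe at 1.38 and 1.11.

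Beyond the members, 17 other miRNAs that the literature links to components of the pathway were listed. Both replicates detected 5 of them, miR-19b-3p, miR-125a-5p, miR-125b-5p, miR-199a-3p and miR-212-3p, and 12 were detected in neither. The 5 are 29.4% of the list, against 11.5% of all miRNAs. The median of the mean intensities over the 17 was 2.82 in replicate 1 and 2.38 in replicate 2, against 0.462 and 0.225 for all miRNAs. The list was chosen with earlier results of these data known, so neither comparison is a test of NF-κB-linked miRNAs. The brightest was miR-125b-5p, which represses TNFAIP3, an inhibitor of NF-κB. Its brighter probe had a mean of 62.2 ± 5.39 in replicate 1 and 47.8 ± 4.19 in replicate 2 (SD over 15 spots each). On the log2 scale relative to the 75th percentile this probe stood at 0.30 and 0.25. Its other probe was detected on neither array, with means of 6.64 and 1.75, and 4 of its 14 spots in replicate 2 were at or below 0, which lowers the level averaged over both probes. The brighter probe of miR-19b-3p, a member of the miR-17-92 cluster, had 22.8 ± 3.51 and 22.8 ± 3.18 (SD over spots), and its other probe was detected on neither array.

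The brighter probe of miR-199a-3p had 24.0 ± 3.71 and 24.6 ± 3.96, and that of miR-125a-5p 15.1 ± 3.38 and 12.2 ± 3.62. Of the 12 undetected miRNAs, miR-223-3p, a miRNA of myeloid cells, came nearest to the limit. The better of its probes on each array stood at 2.39 times its error in replicate 1 and 2.60 times in replicate 2. These values belong to different probes. The means over its probes were 6.92 ± 2.34 (SD over 28 spots) and 8.15 ± 2.50 (SD over 30 spots). miR-16-5p and miR-15a-5p, which are abundant in most cells, reached at most 1.39 and 1.15 times their error.

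The 6 members with a sequence were poor in G and C, from 34.8% in miR-155-5p and miR-9-5p to 50% in miR-132-3p, with a median of 38.6%. For miR-21a-5p the share was 36.4%. Of the 216 miRNAs detected on both arrays, 182 had a RefSeq sequence, and their median was 59.1%. The median of the 1390 with a sequence among those detected on neither array was 50%. At or below the G and C share of miR-21a-5p lay 7 of the 182 detected miRNAs, or 3.85%, itself included. Within the range of the members, 50 of 692 miRNAs of the array were detected on both arrays, 7.23%, whereas above that range 15.1% of 846 were. Base composition can affect how a probe binds, and its part in which members were detected was not tested.

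**Figure D4:**
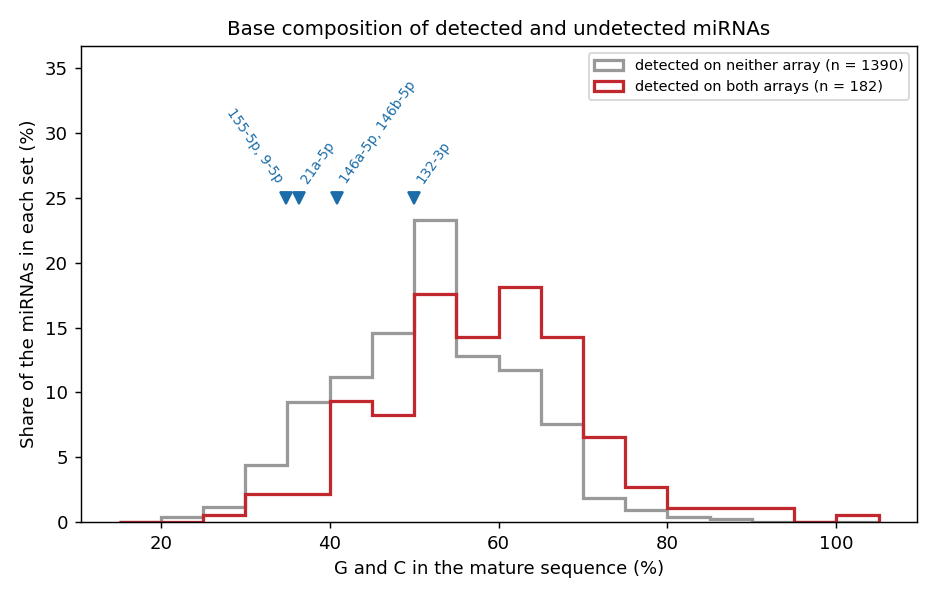
Share of miRNAs (vertical axis, in percent of each set) by the percent of G and C in the mature sequence (horizontal axis, bins of equal width), for the 182 detected on both arrays (red) and the 1390 detected on neither (grey). Triangles mark the 6 members with a sequence, from 34.8% to 50%, which lie to the left of the red median of 59.1%.

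According to the labels, RNA was purified with a blood kit, depleted of globin messages and labelled as cRNA, whereas the study's methods give MiRNeasy extraction of exosomes under PCR, and labelling by the array maker's protocol. Which extraction served the arrays was not settled here. Of 3 miRNAs typical of red blood cells, 0 were detected on either array, and miR-451a reached at most 0.941 times its error. The highest of the 3 was miR-486a-5p, whose better probe stood at 1.96 and 1.85 times its error with means of 6.01 ± 2.94 (SD over 15 spots) and 5.77 ± 1.65 (SD over 12 spots), which 0.913% and 3.42% of the negative control spots met or exceeded. Likewise 0 of 4 miRNAs of white blood cells were detected, miR-223-3p among them. Yet with outlier spots left out, 100% of the spots of both miR-223-3p probes were positive and significant on each array. Against the 11.5% of all miRNAs detected on both arrays, 0 of 3 and 0 of 4 are close to the background share. Epithelial miRNAs, which include the miR-200 family, were detected in 0 of 6 cases, and 2 of 5 mesenchymal miRNAs, miR-199a-3p and miR-214-3p, were detected on both arrays, where the share over all miRNAs was 11.5%. Both arrays lacked saturated spots among the miRNA probes.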

How the data were processed

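The authors hybridized RNA of LLC exosomes to Agilent mouse miRNA microarrays and deposited, per the file headers, the fluorescence intensity of each spot from Feature Extraction 10.7.1.1, background-subtracted and not normalized between arrays, with totals and detection flags. The submitters' processing notes name version 9.1. The authors also deposited a log2 table for each miRNA, whose making, scale and centring are not given in the sources used here. The median of both columns, -3.32, is their lowest value, and both hold the same sorted values. It was used as an alternative only.

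Control spots and outlier spots were left out. The 7 miRNAs and all lists were chosen with earlier results of these data known. All members, their opposite arms, miRNAs with a member's seed and 17 other miRNAs were named by rule, with the 2 nearest in level. The neighbours in rank, miR-214-3p and miR-206-3p were named after their values were seen. Before log2 was taken, a scaled value of 0 or less was replaced by the lowest positive one. The probe rule gave the software's call for 1881 of 1881 miRNAs on each array. The computation of levels was tested on simulated data in which the probes of a miRNA were equally bright. That simulation used another detection rule, so it does not check the calls made here. Python 3.11.15, numpy 2.4.6, pandas 2.3.3, R 4.3.3 and limma 3.58.1 (normexp, offset 50) were used. With 1 group, no p-value was computed.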

Additional observations from a re-analysis of the deposited data

Results flagged for a closer look

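In the deposited log2 table, which lies outside the measurement used above, miR-155-5p had a value of -2.22 in replicate 1 and -2.14 in replicate 2, although it was detected on neither array. These values lay above the lowest value of the table, -3.32, at which all 8 names of negative controls and blanks stood on both arrays. In all, 285 miRNAs lay above it in both columns, while 216 were detected on both arrays, and other undetected miRNAs had like values, such as miR-15a-5p with -2.23 and -2.14 and miR-16-5p with -2.17 and -2.13. The other 5 undetected members stood at -3.32 in both columns, and miR-21a-5p had 4.17 and 4.99. In each column the scale and centring are unknown.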

How the results depend on the processing

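The count of 1 detected member held under both other detection calls and with either replicate left out. The count of members with every probe above all negative control spots was also 1 with the 99th percentile of these spots as the bound, without background subtraction and with either replicate left out, and it was 0 when outlier spots were kept, an alternative added after the data were seen. The brightest control spot was then 46.4 in replicate 1 and 36.9 in replicate 2, above the dimmer and below the brighter probe of miR-21a-5p.

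The level of miR-21a-5p, -0.57, changed sign to 3.65 with the 75th percentile over all probes, to 0.88 with the brightest probe and to 4.58 in the deposited log2 table. The first and the last change the scale itself. With a replicate left out the level lay between -0.99 and -0.14, and the rank between 50 and 70. Among all miRNAs of the array its rank was 58, moved to 35 with the brightest probe and lay between 46 and 69 under the other 7 alternatives. The difference between the arrays, 0.85, kept its direction under all 8, from 0.31 with normexp to 0.85. For the undetected members, 69 of 132 such values moved by more than the spread between the arrays.

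No paired analysis was possible because all arrays belong to 1 group. The means of the undetected members lay within the range of single negative control spots. Single spots vary more than a mean over spots, so this is a weak bound. Of the 15 spots of the brighter miR-155-5p probe, 0 in replicate 1 and 1 in replicate 2 were at or below 0. For the negative control spots the shares were 41.8% and 38.4%. Whether this probe differed from the controls was not tested. Low signal and absence cannot be told apart for members below the detection limit.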

Other observations

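Of 3 muscle miRNAs on the list of markers, miR-206-3p was detected on both arrays and the other two on neither. Its probes had mean intensities of 24.8 ± 3.69 (SD over 14 spots) and 29.4 ± 1.87 (SD over 12 spots) in replicate 1, and of 18.6 ± 2.59 (SD over 13 spots) and 24.3 ± 4.15 (SD over 15 spots) in replicate 2. Both of its probes were thus brighter than every spot of 6 of the 7 NF-κB-linked miRNAs. Its signal was at most 7.0 times its error. miR-214-3p had a brighter probe with 24.7 ± 2.28 and 21.3 ± 2.88 (SD over 15 spots each) and another at 4.26 ± 3.12 and 4.09 ± 2.30, which was not detected. None of 3 neuronal miRNAs was detected on both arrays, and the single liver miRNA of the list was detected on neither. The share of all miRNAs detected on both arrays was 11.5%.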
